A study of Mustela putorius furo and Mus musculus with 4 samples.

Results

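Potassium channel genes were compared between cultured astrocytes of the ferret and of the mouse. The group was chosen by name alone, as every gene whose symbol starts with Kcn and was present in the values of both species, which gave 83 of 13373 shared symbols. It holds the subunits that form the pore of potassium channels and auxiliary subunits that bind to them, and includes Kcnj10, which encodes the inward rectifier Kir4.1 of astrocytes. No Kcn symbol had several values in a species.

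Potassium channels let potassium ions pass through the cell membrane, and the open channels of a resting astrocyte hold its membrane potential close to the potassium equilibrium potential. Astrocytes take up the potassium that active neurons release, and Kir4.1, alone or joined with Kir5.1 from Kcnj16, carries much of the resting potassium conductance of mature rodent astrocytes. Two-pore channels add a leak conductance, voltage-gated channels open on depolarization, and calcium-activated channels open when calcium rises in the cell.

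RNA was sequenced from 2 libraries of ferret astrocytes (Mustela putorius furo, cortex of animals on postnatal day 1) and 2 libraries of mouse astrocytes (ICR mice, cortex, postnatal day 1 to 3). Cells of both species grew as mixed glia for 14 days in serum, were shaken and replated, and were kept without serum for the last days before harvest in a medium that held N-acetyl cysteine and heparin-binding EGF-like growth factor for both species. The paper describes ferret cultures in which 1 pup filled 4 flasks and mouse cultures in which 4 pups were pooled in 1 flask. The authors deposited FPKM, a fragment count divided by exon length and by the mapped fragments of its library, which compares levels between genes per length but holds no counts, and the read counts listed in the study's supplement were not used here, so that no depth is given. The paper does not say whether the 2 libraries of a species came from separate cultures, so p-values measure the spread between these libraries, which may be technical.

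The species were compared on log2(FPKM + 1) by limma with Benjamini-Hochberg adjustment over the 10204 shared symbols with a mean of at least 1 FPKM in at least one species. Calls needed an adjusted p under 0.05 together with a log2 difference of more than 1 in either direction, and differences are given as ferret minus mouse. This scale understates the change of low genes. With 2 libraries a species, the smallest p of an exact two-sided permutation test is 0.333. Species, annotation and culture cannot be told apart in this design. Summed FPKM over all shared symbols was 227391 and 236543 for the ferret, against 300465 and 308121 for the mouse, and the median log2 difference over all tested symbols was -0.35. That median was -0.01 with the libraries rescaled to the same sum and 0.05 after quantile normalization. The astrocyte label was checked against 11 markers, which summed to 4704 and 4898 FPKM in the ferret, against 10273 and 11054 in the mouse. Of these, 10 had a mean above 1 FPKM in the ferret and 11 in the mouse, with Slc1a2 the one below 1 in the ferret. In the ferret, 1 of the 11 was called higher (S100b) and 7 were called lower, and 3 were not called. Markers of other cells were also measured: 17 microglial markers summed to between 78.0 and 78.5 FPKM in the ferret, against between 1011 and 1031 in the mouse, and 16 of the 17 were called lower in the ferret, with Cx3cr1 listed at 0 in both ferret libraries. Meningeal fibroblast markers (10 genes) summed to between 108 and 122 FPKM in the ferret, against between 1568 and 1588 in the mouse, with Slc6a13 listed at 0 in both mouse libraries. Endothelial markers (8 genes) summed to 0.793 and 0.792 FPKM in the ferret, against 26.0 and 26.3 in the mouse, and the mouse sum rested on Cdh5, without which it was 4.07 and 3.85. Among these, Pecam1, Cdh5 and Tek are listed at 0 in both ferret libraries and Cldn5 in both mouse libraries. Oligodendrocyte lineage markers (10 genes, none at 0 in a species) summed to between 169.6 and 188 FPKM in the ferret, against 69.1 in each mouse library, and of 8 tested, 3 were higher and 0 lower in the ferret. Neuronal markers (7 genes, none at 0 in a species) summed to between 31.0 and 32.5 FPKM in the ferret, against between 32.6 and 33.7 in the mouse. These sums rested on Map2, without which they were 12.2 and 13.5 FPKM in the ferret, against 2.2 and 2.4 in the mouse. Of the 4 neuronal markers tested, Syt1, Gad1 and Nefl were called higher in the ferret and Map2 was not called. In such bulk samples, fewer cells of a type and less RNA per cell cannot be told apart. The part of these cells in the results that follow was not tested.

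The pore of a potassium channel is lined by a short stretch of residues, the selectivity filter, and the codons for it are shown here because they tell pore subunits from auxiliary subunits by sequence. The search was for codons of serine or threonine, any residue, glycine, then tyrosine, phenylalanine or leucine, and glycine, on the coding strand of 1 transcript per gene. Windows of 30 coding bases from mouse GRCm38 (GENCODE annotation) follow, with the 5 codons of the match in capitals. They are those of Kcnj10 and 4 pore genes called in opposite directions, each with its window within 1 coding exon.
Kcnj10, chr1:172369296-172369325, plus strand: cagaccACCATCGGCTATGGCttccgctac
Kcnj8, chr6:142566439-142566468, minus strand: caagtgACCATTGGGTTTGGAgggagaatg
Kcnk10, second match, chr12:98440596-98440625, minus strand: ctgaccACAGTAGGCTTTGGTgattttgtg
Kcnk3, second match, chr5:30622196-30622225, plus strand: ctcaccACCATCGGCTTCGGCgactatgtg
Kcnma1, chr14:23528404-23528433, minus strand: atgtctACAGTGGGTTATGGGgacgtttat
The match was present in 70 of the 83 members (84.3%), against 1159 of 21614 mouse protein-coding genes (5.36%). All 70 pore subunits held it and 0 of the 13 auxiliary subunits did. All 13 two-pore channels, which carry a pair of pore loops in one protein, held at least 2 matches. So did 2 of the 28 voltage-gated pore subunits, Kcna6 and Kcnh2. A match describes these letters and is no test of function.

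Of the 83 genes, 38 had a mean of at least 1 FPKM in at least one species and 45 stayed below 1 in both. Among the 38 tested, 9 were higher and 16 lower in ferret astrocytes and 13 were not called. Over all tested symbols, 13.1% were higher and 30.1% lower in ferret astrocytes, 43.2% in all. The lower calls among the tested Kcn genes numbered 13 with the libraries rescaled to the same sum and 11 after quantile normalization, where the higher calls numbered 9 and 10. Higher calls were thus 36.0% of the calls as deposited, 40.9% at the same sum and 47.6% after quantile normalization, against 30.3%, 46.9% and 49.8% over all genes. The libraries of the species did not overlap for any of the 38, against 94.1% of all tested symbols. The tested genes include 13 with a mean of at least 1 in the ferret only and 12 in the mouse only, which differ in part because they passed the filter in one species. Of the 13 genes at or above 1 in both species, 0 were called higher and 5 lower (38.5%) in the ferret. Of all 8583 shared symbols at or above 1 in both species, 10.5% were called higher and 25.8% lower. By the rule of a mean under 1 in one species and at least 1 in the other, 15.7% of the 83 genes were ferret-specific and 14.5% mouse-specific, against 4.34% and 7.78% of all shared symbols.

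The summed level of the 83 genes was 110.4 and 109 FPKM in the ferret, against 574 and 608 in the mouse. The ferret sum was the lower one by a log2 ratio of -2.43. Without Kcnj10, the sum was 108 and 106 FPKM in the ferret, against 158 and 164 in the mouse. The levels of the 83 genes correlated weakly between species as means (Spearman 0.38), whereas duplicates within a species correlated at 0.93 (ferret) and 0.98 (mouse), and all 13373 shared symbols correlated between species at 0.82. Over the 38 tested Kcn genes the correlation between species was -0.25, against 0.68 over all tested symbols. Those 38 include 13 genes that passed the filter in the ferret only and 12 in the mouse only. These correlations across genes share libraries and depth, and describe order only. Of the 10 genes with the highest mean in each species, 2 were the same, Kcnj10 and Kcnk1. The 10 held 68.2% of the Kcn level in the ferret and 92.2% in the mouse.

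**Figure D1:**
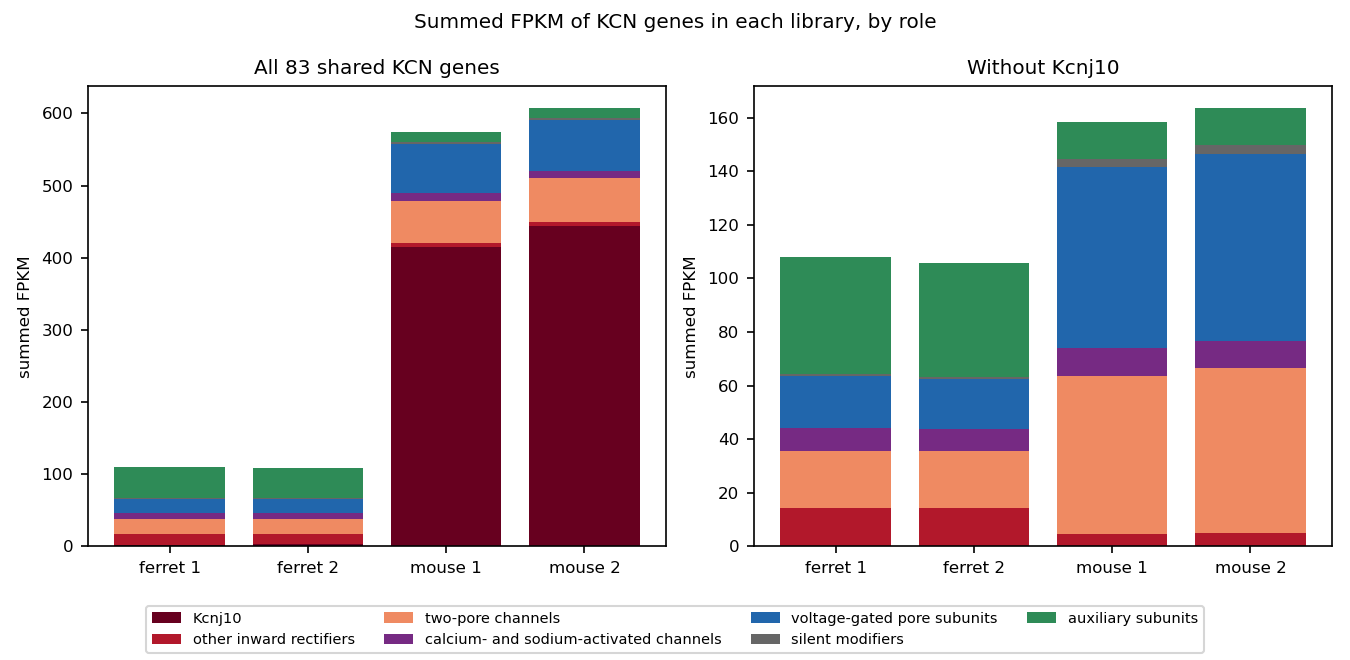
Summed FPKM (linear axis from 0) of the Kcn genes by role in each of the 4 libraries, with Kcnj10 apart from the other inward rectifiers on the left and left out on the right. Kcnj10 fills most of the mouse sum of 574 and 608 FPKM, and auxiliary subunits take 43.7 and 42.3 FPKM of the ferret sum of 110.4 and 109.

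Inward rectifiers pass potassium more easily into the cell than out of it, and 14 were shared. Of the 5 tested, 1 was higher and 3 were lower in the ferret. For this and the following groups, the shares over all tested symbols were 13.1% higher and 30.1% lower. Kcnj10 (Kir4.1) stood at 2.33 and 3.12 FPKM in the ferret, against 415 and 444 in the mouse. Both ferret libraries lay far below both mouse libraries, and the mouse mean of 430 ± 20.2 FPKM was 158-fold the ferret mean of 2.72 ± 0.56 (SD, n = 2). The log2 difference was -6.86 (SE 0.094, 95% interval -7.07 to -6.65, adjusted p = 1.19e-11), the lowest but 7 of the 10204 differences. In the mouse, Kcnj10 ranked 62 among all shared symbols by level and made up 72.4% and 73.1% of the summed Kcn level. In the ferret it ranked 7837 and made up 2.11% and 2.87%. The mouse gene lies on the plus strand at chr1:172341210-172374085 in GRCm38, where the annotation gives it 5407 exon bases and no overlapping gene.

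Kcnj16 (Kir5.1), a subunit that joins Kir4.1, was low in both species. It is listed at 0 in ferret replicate 1 and stood at 0.127 FPKM in ferret replicate 2, against 1.31 and 1.14 in the mouse. All 4 libraries were near or below 1 FPKM, with the mouse libraries above the ferret ones (log2 difference -1.07, SE 0.089, adjusted p = 1.44e-06). This call was lost at -0.96 with the same sum, at -0.87 after quantile normalization and at -0.98 without ferret replicate 1. The level of Kcnj10 was 317 and 388 times that of Kcnj16 in the mouse libraries and 24.6 times in ferret replicate 2. The mouse gene lies at chr11:110968033-111027968, plus strand.

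Kcnj8 (Kir6.1), the pore of an ATP-sensitive channel known from pericytes and vascular muscle, ran the other way. It stood at 11.7 and 11.3 FPKM in the ferret, against 0.0139 and 0.0232 in the mouse (log2 difference 3.62, SE 0.075, adjusted p = 1.02e-10). It was near 0 in the mouse and made up 10.6% and 10.4% of the ferret Kcn level. The sum of 6 pericyte markers was 32.2 and 29.0 FPKM in the ferret, against 256 and 271 in the mouse, most of it from Acta2. Without Acta2 the sum was 9.32 and 8.66 FPKM in the ferret, against 35.0 and 33.0 in the mouse. Of the 5 tested, 3 were lower in the ferret, whereas Higd1b was higher, as Kcnj8 was, at 1.77 and 1.45 FPKM against 0.0984 and 0. Rgs5 is listed at 0 in both ferret libraries, and the part of pericytes in the level of Kcnj8 was not tested. Abcc8, a regulatory partner of ATP-sensitive channels, was below 0.1 FPKM in each library. The other listed partner of these channels, Abcc9, was not among the shared symbols and was not compared. Kcnj15 (Kir4.2) is listed at 0 in both ferret libraries and stood at 1.12 and 1.29 FPKM in the mouse (log2 difference -1.14, adjusted p = 3.59e-07), a call lost after quantile normalization. Kcnj13 (Kir7.1) differed by 0.16 (95% interval -0.03 to 0.36, adjusted p = 0.101) and was near 1 FPKM in each library. Without Kcnj10, inward rectifiers summed to 14.5 and 14.2 FPKM in the ferret, against 4.73 and 4.92 in the mouse. The higher ferret sum rested on Kcnj8, which alone gave 11.7 and 11.3 FPKM of it.

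**Figure D2:**
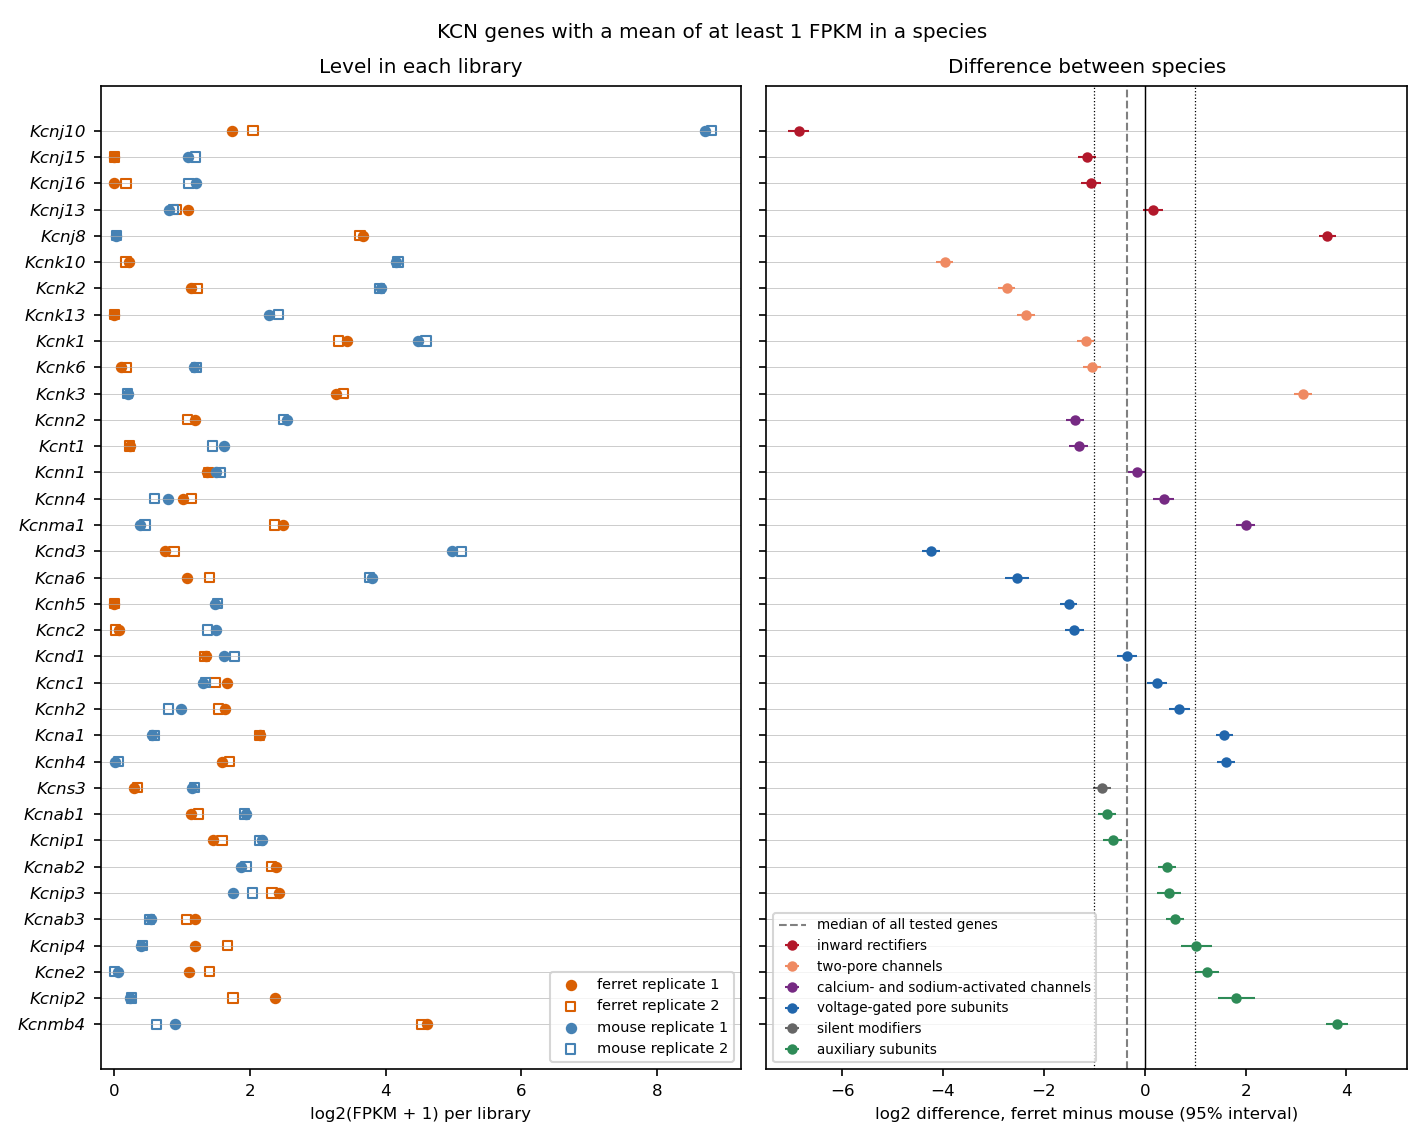
Tested Kcn genes named in the text, by role. Left, level in each library as log2(FPKM + 1), with filled circles for replicate 1, open squares for replicate 2 and one colour per species; right, log2 difference (ferret minus mouse) with its 95% interval from limma, coloured by role, with dotted lines at a difference of 1 in each direction and a dashed line at the median of all tested genes, -0.35. On the left, duplicates lie close together, Kcnj10 is the rightmost mouse point, and Kcnmb4, Kcnj8 and Kcnk3 lie to the right in the ferret.

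Two-pore channels carry the background leak of potassium, and 13 were shared. Of the 6 tested, 1 was higher and 5 were lower in ferret astrocytes, and their sums were 20.9 and 21.2 FPKM in the ferret against 58.8 and 61.5 in the mouse libraries. Kcnk1 (TWIK-1) was the only Kcn gene at 5 FPKM or more in both species. It stood at 9.73 and 8.91 FPKM in the ferret, against 21.3 and 23.1 in the mouse (log2 difference -1.17, adjusted p = 1.54e-07). The call was lost at -0.81 with the same sum and at -0.76 after quantile normalization. Kcnk10 (TREK-2), a mechanically gated leak channel, stood at 0.165 and 0.129 FPKM in the ferret, against 16.7 and 17.2 in the mouse (-3.97, adjusted p = 5.93e-11). Its relative Kcnk2 (TREK-1) stood at 1.20 and 1.34 FPKM in the ferret, against 14.3 and 14.0 in the mouse, 11.2-fold as much (-2.74, adjusted p = 5.13e-10). Both mechanically gated channels were thus far lower in the ferret libraries.

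Kcnk13 (THIK-1), a channel known from microglia, is listed at 0 in both ferret libraries and stood at 3.88 and 4.34 FPKM in the mouse (-2.35, adjusted p = 2.22e-09). Kcnk6 (TWIK-2) stood at 0.0742 and 0.131 FPKM in the ferret, against 1.25 and 1.31 in the mouse (-1.05, adjusted p = 5.69e-07), and its call was lost with the same sum and after quantile normalization. Both genes were lower in the ferret, as were 16 of the 17 microglial markers, but also 30.1% of all tested symbols. The part of microglia in the levels of Kcnk13 and Kcnk6 was not tested. Kcnk3 (TASK-1), an acid-sensitive leak channel, was the exception among two-pore genes. It stood at 8.67 and 9.42 FPKM in the ferret, against 0.145 and 0.147 in the mouse (3.13, SE 0.078, adjusted p = 2.97e-10).

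Of 7 calcium- or sodium-activated channel genes and their relatives, 5 were tested, of which 1 was higher and 2 were lower in ferret astrocytes. Kcnma1, the pore of the large-conductance BK channel, stood at 4.58 and 4.14 FPKM in the ferret, against 0.308 and 0.371 in the mouse, 12.8-fold higher in the ferret (log2 difference 2.00, SE 0.081, adjusted p = 6.95e-09). Kcnmb4, the BK beta-4 auxiliary subunit, was the highest Kcn gene of the ferret. It stood at 23.4 and 22.1 FPKM there and at 0.858 and 0.543 in the mouse, 32.5-fold higher in the ferret (3.81, SE 0.097, adjusted p = 3.19e-10). Pore and auxiliary subunit of BK were both higher in the ferret, but both passed the filter through the ferret only. Of all shared symbols that did so, 74.4% were called higher in the ferret. The level of Kcnmb4 was 5.10 and 5.35 times that of Kcnma1 in the ferret, against 2.79 and 1.46 times in the mouse. The mouse ratios rest on values under 1 FPKM. In the other direction, Kcnn2, a small-conductance calcium-activated channel, stood at 1.28 and 1.11 FPKM in the ferret, against 4.81 and 4.65 in the mouse (-1.38, adjusted p = 8.37e-08), a call lost after quantile normalization. Kcnt1, a sodium-activated channel, stood at 0.169 and 0.171 FPKM in the ferret, against 2.06 and 1.74 in the mouse (-1.31, adjusted p = 2.03e-07). Kcnn1 was not called at -0.15 (95% interval -0.33 to 0.02, adjusted p = 0.0879), and its sign turned with the same sum and after quantile normalization. Kcnn4 was not called either, at 1.02 and 1.19 FPKM in the ferret, against 0.728 and 0.513 in the mouse.

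Voltage-gated pore subunits were the largest group, with 28 shared genes of which 12 were tested, 2 higher and 6 lower in ferret astrocytes. They summed to 19.2 and 18.6 FPKM in the ferret, against 67.5 and 69.6 in the mouse. Kcnd3 (Kv4.3), which carries a transient A-type current, accounted for much of the mouse sum. It stood at 0.684 and 0.839 FPKM in the ferret, against 30.6 and 33.8 in the mouse, 42.3-fold as much (log2 difference -4.24, SE 0.082, adjusted p = 7.07e-11). Reads of Kcnd3 and of its antisense partner Kcnd3os may not be fully separated, since the strand setting of the counting is not given in the sources used here. The mouse annotation also gives overlapping genes on the opposite strand for Kcnmb4, Kcnma1, Kcnk2, Kcnk10, Kcnn2 and Kcnj15, among others. The same limit holds for those genes. Kcna6 (Kv1.6), a delayed rectifier, stood at 1.11 and 1.64 FPKM in the ferret, against 13.0 and 12.5 in the mouse, 9.27-fold as much (-2.54, adjusted p = 7.91e-09). Both Kcnd3 and Kcna6 were lower in ferret astrocytes.

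Also lower was Kcnh5. It belongs to the ether-a-go-go family, is listed at 0 in both ferret libraries and stood at 1.80 and 1.87 FPKM in the mouse (-1.50, adjusted p = 3.15e-08). Kcnc2 (Kv3.2), of the fast Kv3 family, stood at 0.0508 and 0.0119 FPKM in the ferret, against 1.84 and 1.60 in the mouse (-1.40, adjusted p = 9.94e-08). Against these stood a pair of genes with higher levels in the ferret. Kcna1 (Kv1.1), a delayed rectifier known from axons, was higher as were 3 of the 4 tested neuronal markers, whose part was not tested. It stood at 3.45 and 3.42 FPKM in the ferret, against 0.466 and 0.511 in the mouse (1.58, adjusted p = 2.25e-08). Kcnh4, of the ether-a-go-go-like family, stood at 2.01 and 2.26 FPKM in the ferret, against 0.00823 and 0.0480 in the mouse (1.61, adjusted p = 3.18e-08). Among the voltage-gated genes that were not called, Kcnh2 (0.69) and Kcnc1 (0.24) were above 0 and Kcnd1 (-0.35) below it, and Kcnd1 turned sign after quantile normalization.

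**Figure D3:**
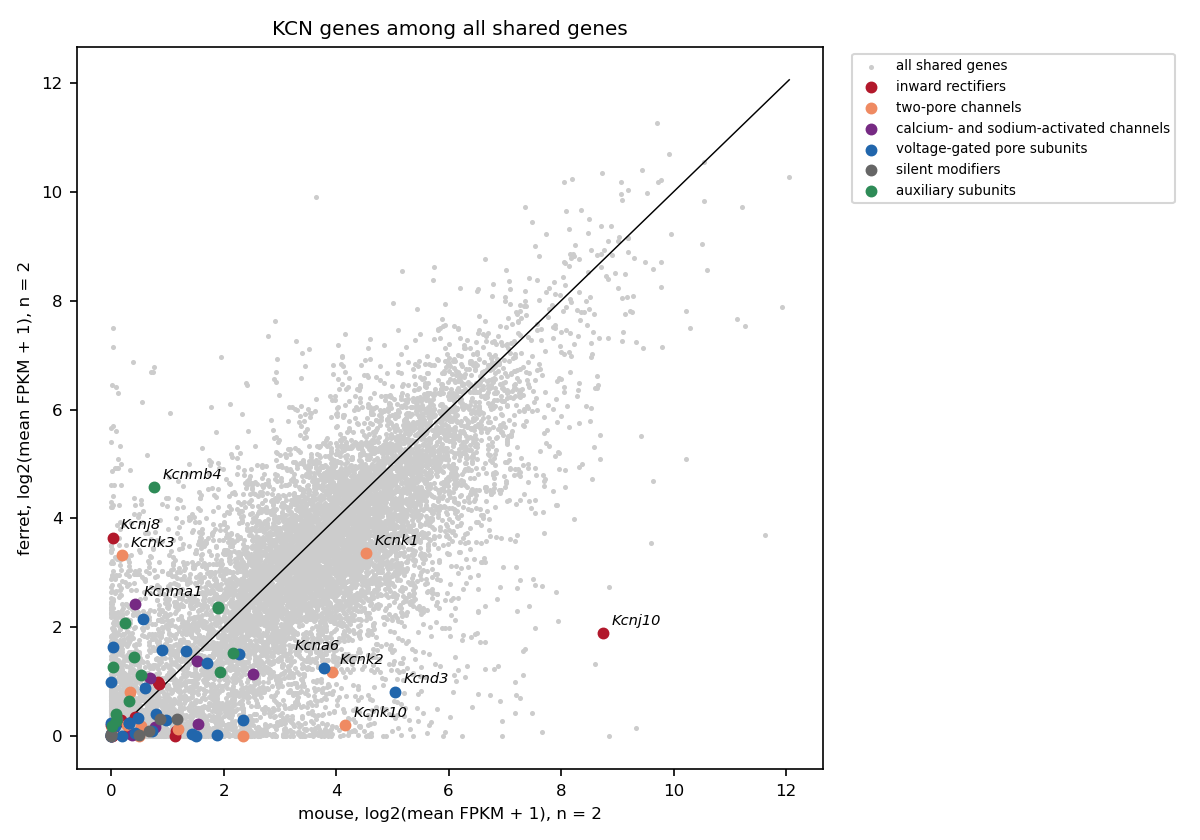
Mean level of each shared symbol in the mouse (x axis) and ferret (y axis) as log2(mean FPKM + 1), with Kcn genes coloured by role and equal levels on the line. Kcnj10 lies far below the line at a mouse mean of 430 FPKM, and Kcnmb4, Kcnj8 and Kcnk3 lie far above it.

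Auxiliary subunits bind pore subunits and set where and how they open. Of 13 shared genes, 9 were tested, of which 4 were higher, 0 were lower in ferret astrocytes and 5 were not called. Over all tested symbols, 13.1% were higher and 30.1% lower. All 4 called genes had a mean under 1 FPKM in the mouse, so they were among those that passed the filter through the ferret. Of all shared symbols that passed through the ferret only, 74.4% were called higher and 0% lower. The 13 auxiliary genes together made up 39.6% and 38.9% of the summed Kcn level of the ferret, against 2.38% and 2.30% of that of the mouse. Without Kcnj10 the shares were 40.5% and 40.0% in the ferret and 8.61% and 8.53% in the mouse. These shares leave out Kcne1l, an auxiliary subunit gene of the Kcne family found in the mouse values only. It stood there at 24.3 and 27.5 FPKM, against 13.6 and 14.0 FPKM for the 13 shared auxiliary genes together. Beside Kcnmb4, the called genes were Kcnip2, Kcne2 and Kcnip4. Kcnip2, which binds Kv4 channels, stood at 4.15 and 2.36 FPKM in the ferret, against 0.170 and 0.194 in the mouse (log2 difference 1.82, adjusted p = 2.48e-06). The ferret replicates of Kcnip2 differed by 0.61 on the log2 scale, the largest gap between duplicates among the tested Kcn genes. Kcne2, a beta subunit of KCNQ and other channels, stood at 1.15 and 1.65 FPKM in the ferret, against 0.0396 and 0 in the mouse (1.23, adjusted p = 1.59e-06). Kcnip4 stood at 1.28 and 2.18 FPKM in the ferret, against 0.316 and 0.339 in the mouse (1.02, adjusted p = 5.19e-05), and its call was lost at 0.78 without ferret replicate 2.

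Kv4 channels are built from Kcnd pore subunits with Kcnip subunits. Of the Kcnd genes only Kcnd3 was called, and of the Kcnip genes only Kcnip2 and Kcnip4. The 3 Kcnd genes summed to 2.61 and 2.62 FPKM in the ferret, against 33.4 and 37.0 in the mouse, most of it from Kcnd3. The 4 Kcnip genes summed to 11.5 and 10.6 FPKM in the ferret, against 6.36 and 7.05 in the mouse. Dpp10, a Kv4 auxiliary protein outside the Kcn names, stood at 3.95 and 3.61 FPKM in the ferret and is listed at 0 and 0.00571 in the mouse (2.25, adjusted p = 2.49e-09). The other tested auxiliary genes Kcnip1, Kcnip3, Kcnab1, Kcnab2 and Kcnab3 were not called. Of these, Kcnip3 (0.48), Kcnab2 (0.44) and Kcnab3 (0.60) were above 0 and Kcnip1 (-0.64) and Kcnab1 (-0.74) below it.

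The 45 genes under 1 FPKM in both species comprised 9 inward rectifiers, 7 two-pore channels, 2 calcium- or sodium-activated channels, 16 voltage-gated pore subunits, 7 silent modifiers and 4 auxiliary subunits. Silent modifiers form no channel of their own but change that of others, and the only tested one, Kcns3, was not called at -0.84. Of the 45, 4 are listed at 0 in all 4 libraries, namely Kcna10, Kcnj1, Kcnk16 and Kcnv2. The highest of the 45 were Kcnh3 with 1.05 and 0.932 FPKM in the ferret, Kcna2 with 1.01 and 0.945 in the mouse, and Kcnj2 (Kir2.1) with 0.979 and 0.930 in the ferret, against 0.745 and 0.850 in the mouse. Low values carry no interval, since FPKM alone does not give the counts behind them.

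Genes that work with Kir4.1 in potassium and water transport were taken from a list of 23, of which 20 were shared and 3 were not analysed here. Of the 20, 1 was higher and 14 were lower in ferret astrocytes and 5 were not called, and their median log2 difference was -1.36, against -0.35 over all tested symbols. The lower genes numbered 10 with the same sum and 9 after quantile normalization. Over all 10204 tested symbols, lower calls numbered 3069 as deposited (30.1%), 2215 with the same sum and 2090 after quantile normalization. Atp1b2, the beta-2 subunit of the sodium pump, stood at 6.03 and 5.43 FPKM in the ferret, against 445 and 480 in the mouse (log2 difference -6.11, adjusted p = 5.85e-12). The mouse libraries therefore lay far above the ferret ones, as for Kcnj10. Atp1b3, the beta-3 subunit, was the only gene called higher in the ferret, at 180 and 189 FPKM against 67.9 and 67.3 (1.44).

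Aqp4, the water channel of astrocyte endfeet, was also lower, and stood at 24.8 and 21.8 FPKM in the ferret, against 201.5 and 209.9 in the mouse (-3.09). Dmd, which encodes dystrophin, stood at 1.88 and 1.83 FPKM in the ferret, against 49.1 and 49.2 in the mouse (-4.13). Mlc1, a membrane protein of astrocyte junctions, stood at 27.8 and 25.9 FPKM in the ferret, against 197 and 212 in the mouse (-2.88). Hepacam, a cell adhesion protein that binds Mlc1, was not called at -0.18 and turned sign with the same sum. Outside the Kcn names, 10 genes were listed as potassium channel subunits, of which 9 were shared and 4 were tested. Of these, Pkd2 encodes a cation channel that is not selective for potassium. Beside Dpp10, Amigo1 (-1.09) and Pkd2 (-1.04) were lower and Dpp6 (0.83) was not called. The calls of Amigo1 and Pkd2 were lost with the same sum (-0.82 and -0.66) and after quantile normalization (-0.66 and -0.65).

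**Figure D4:**
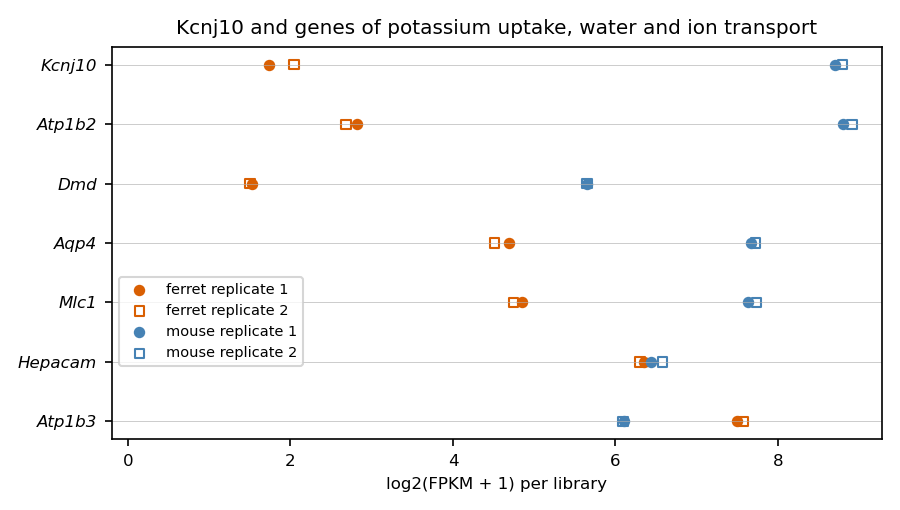
Level of Kcnj10 and of the listed partners named in the text, in each library as log2(FPKM + 1), with one colour per species. Kcnj10, Atp1b2, Dmd, Aqp4 and Mlc1 lie far to the right in the mouse, and Atp1b3 lies to the right in the ferret.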

How the data were processed

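Per the labels and the paper's methods, the authors aligned reads of each species with STAR (2.7.0f) to its Ensembl genome and deposited FPKM per gene from Cufflinks (2.2.1); libraries were polyA-selected and stranded, and FPKM holds no counts; the read counts in the study's supplement were not used here. The lowest FPKM steps gave a depth of replicate 1 over replicate 2 of 1.17 in the ferret and 0.829 in the mouse. Symbols were matched in upper case, keeping the highest-mean value. Of 84 ferret and 99 mouse Kcn symbols, 83 were shared. log2(FPKM + 1) was fitted with limma (3.58.1, R 4.3.3; empirical Bayes with trend), with species as the only term, on symbols with a mean of at least 1 FPKM in a species. The fit was tested on simulated data. Alternatives were a pseudocount of 0.1, no filter, libraries rescaled to the same sum, quantile normalization, summed values of a symbol, the replicate block, stricter limits for genes specific to a species, and leaving out one library at a time.

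Kcn genes were named where a mean reached 1 FPKM, with Kcnj10 and Kcnj16 always named. Of the genes below 1 in both species, the highest were named, and the 4 at 0 were named after their values were seen. Of the partners and other subunits, those with extreme differences or at least 10 FPKM were named, and Abcc8, Dpp6 and Amigo1 were named after their values were seen. The members and lists were chosen with earlier results of these data known. Mouse coordinates and coding sequence came from GENCODE on GRCm38. Ferret sequence was not used here, and some genes and 1 sequence are not reported here.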

Additional observations from a re-analysis of the deposited data

How the results depend on the processing

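The direction of every called Kcn gene held under each alternative run. The calls were 11 higher and 19 lower with a pseudocount of 0.1, 9 and 13 with the libraries rescaled to the same sum, and 10 and 11 after quantile normalization. Without the filter or with summed values they remained 9 and 16. The difference of Kcnj10 ranged from -6.52 to -7.26 over the alternatives. Kcnj16 fell short of the call at -0.96 (same sum), -0.87 (quantile normalization) and, with libraries left out in turn, ranged from -0.98 to -1.15, the former without ferret replicate 1; with a pseudocount of 0.1 it was -3.14. The summed Kcn log2 ratio was -2.04 with the same sum and -2.01 after quantile normalization, and -2.39 to -2.47 with one library left out. Species-specific Kcn genes numbered 6 in the ferret and 4 in the mouse with limits of 0.5 and 2 FPKM. The lower partners of Kcnj10 numbered 9 after quantile normalization. Kcnd1 turned to 0.071 after quantile normalization, and Kcnn1 to 0.10 with the same sum and 0.26 after quantile normalization. The cause was not tested. The replicate numbers are only labels, since the animals differ and deviations of same-numbered libraries correlated at 0.0099 over 10204 genes; the replicate block left 9 higher and 16 lower Kcn calls. FPKM carries no counts, which limits every value near 0.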

Other observations

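Kcn symbols found in the values of one species only entered no comparison. In the mouse there were 16, of which 4 had a mean of at least 1 FPKM. Kcne1l, an auxiliary subunit gene of the Kcne family, stood at 24.3 and 27.5 FPKM. These values are above those of every shared Kcn gene of the mouse other than Kcnj10 and Kcnd3. Kcnn3, a small-conductance calcium-activated channel, stood at 3.99 and 4.09 FPKM. Kcnh1 stood at 1.84 and 1.91 FPKM, and the antisense gene Kcnd3os at 1.11 and 1.28. In the ferret the only such symbol was Kcnk17, which is listed at 0 in both libraries. Ferret levels of the genes named here for the mouse were not analysed here.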
